A study of Mus musculus with 20 samples.

Results

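The subject here is the set of genes that build the hair shaft: the hair keratins and the keratin-associated proteins. A gene belonged to the set when the single symbol of its probe set started with Krtap, or was one of Krt31 to Krt40 or Krt81 to Krt87. That took 66 genes of the 22180 measured, 15 hair keratins and 51 keratin-associated proteins, each read from the probe set with the highest mean over the 20 arrays. The members fall into 9 type I hair keratins, 6 type II hair keratins, 11 high-sulphur, 23 ultra-high-sulphur and 15 high glycine-tyrosine keratin-associated proteins, and 2 others of the Krtap16 family.

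Abdominal skin of mice was profiled on Affymetrix arrays, with 5 animals and 5 arrays in each of 4 groups. All mice carried floxed alleles of Zfp36 (genotype zfp36 fl/fl), the gene of an RNA-binding protein that promotes the decay of AU-rich messenger RNAs. The knockout mice carried a K14 cre transgene as well, which is driven by the promoter of keratin 14 and is active in keratinocytes. Skin cells that are not keratinocytes are outside the reach of this transgene, so Zfp36 in whole skin is only in part removed. Its loss in the cells that make the hair keratins was not measured here. The controls were littermates without Cre. Mice of either genotype received imiquimod, a Toll-like receptor 7 agonist that inflames skin, on 5 consecutive days or were mock-treated, and skin was taken 4 h after the last application. The sources used here name no strain, sex or age.

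Hair keratins are intermediate filament proteins that pair a type I with a type II chain and fill the cells of the hair cortex and cuticle. Keratin-associated proteins form the matrix between these filaments, the sulphur-rich families through many cysteines and the other large family through glycine and tyrosine. In skin their genes are known to be active in the differentiating cells above the matrix of a growing follicle, and not in the epidermis between follicles. In whole skin, fewer cells of a type and less RNA per cell cannot be told apart.

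Array medians over all probe sets lay between 4.94 and 5.04 on the log2 scale, so the arrays were level overall. Zfp36 itself, the targeted gene, ranged from 7.22 to 7.74 in control mock skin and from 3.47 to 7.12 in knockout mock skin. Under imiquimod it ranged from 7.68 to 8.40 in controls and from 5.47 to 7.41 in knockouts, without overlap in either treatment. Krt10, a keratin of the suprabasal epidermis and a check of the tissue, lay at 11.43 or above in all 20 arrays. Array numbers are the replicate numbers of the labels. They name arrays within a group and do not tie arrays of different groups together.

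By the RefSeq annotation of build GRCm38.p6 the 66 genes lie in a few clusters, 28 on chromosome 11, 23 on chromosome 16, 6 on chromosome 15, 5 on chromosome 7, 3 on chromosome 10 and 1, Krtap28-13, on chromosome 1. Chromosome 11 holds the type I hair keratins and chromosome 15 the type II hair keratins. A RefSeq promoter window was found for 55 members; Krt33a, Krt35, Krt81, Krt83, Krt86, Krt87, Krtap1-3, Krtap7-1, Krtap9-1, Krtap10-10 and Krtap12-1 had no entry. In the 250 bases before the start, the letters TATAAA began 20 to 40 bases upstream of the start, on the strand of the gene, in 32 of 55 members (58.2%), against 1.99% of all 32851 windows. Anywhere in the window and on either strand, TATAAA was present in 44 members (80.0%) against 12.4% of all windows. The letters CTTTGA, the core of the sequence that LEF1 and TCF factors bind, were present on either strand in 16 members (29.1%) against 13.8%. They were found in 5 of 7 type I hair keratins and in 1 of 20 ultra-high-sulphur genes. Neither motif overlaps the other in sequence, and the windows of members had a median GC content of 40.8% against 52.4% in all windows. A match is a description of letters and was not tied to binding. The 90 bases before the start are shown for members described below, from the minus or plus strand as named and 5' to 3', with TATAAA in capitals. Krt34, Krtap1-5, Krtap5-1 and Krtap22-2 are each from another family, were high and low in the same arrays and have TATAAA at 30 to 35 bases. The other members of their families did not all have it: it lay 20 to 40 bases before the start in 4 of 7 type I hair keratins, 6 of 10 high-sulphur, 15 of 20 ultra-high-sulphur and 6 of 14 high glycine-tyrosine genes. Krtap20-2 carries it too but followed another order of arrays, Krt36 and Krtap19-4 lack it at that distance, and Krtap13 was flat in all arrays.
Krt34, chr11:100041555-100041644, minus strand: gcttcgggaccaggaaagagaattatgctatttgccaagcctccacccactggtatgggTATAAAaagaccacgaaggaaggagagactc
Krtap1-5, chr11:99581017-99581106, minus strand: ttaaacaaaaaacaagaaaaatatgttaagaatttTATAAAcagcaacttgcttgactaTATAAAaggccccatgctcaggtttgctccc
Krtap5-1, chr7:142297135-142297224, minus strand: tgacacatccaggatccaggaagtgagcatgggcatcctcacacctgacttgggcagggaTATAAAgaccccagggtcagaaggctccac
Krtap22-2, chr16:89010760-89010849, minus strand: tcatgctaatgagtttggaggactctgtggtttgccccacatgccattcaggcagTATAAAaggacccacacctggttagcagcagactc
Krtap20-2, chr16:89205771-89205860, plus strand: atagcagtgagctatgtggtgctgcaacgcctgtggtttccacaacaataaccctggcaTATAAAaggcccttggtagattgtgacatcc
Krt36, chr11:100105627-100105716, minus strand: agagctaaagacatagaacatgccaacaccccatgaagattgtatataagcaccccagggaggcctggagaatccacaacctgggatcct
Krtap19-4, chr16:88885090-88885179, minus strand: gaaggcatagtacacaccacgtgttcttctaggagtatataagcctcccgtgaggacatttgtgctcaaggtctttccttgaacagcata
Krtap13, chr16:88751629-88751718, minus strand: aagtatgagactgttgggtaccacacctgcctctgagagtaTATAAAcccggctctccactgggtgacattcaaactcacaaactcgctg

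The members were high or low together, and their level followed the single array as well as the group. Values in a series are given for arrays 1 to 5 in that order. The median over the 66 members was 9.55, 9.56, 8.59, 9.85 and 4.90 in control mock skin. In controls under imiquimod it was 4.86, 4.67, 4.55, 4.93 and 8.94. Array 5 of the mock group was thus at the level of imiquimod arrays 1 to 4, and array 5 of the imiquimod group was at the level of mock arrays 1 to 4. In knockout mock skin the median was 9.55, 7.19, 5.01, 9.18 and 9.66, and in knockouts under imiquimod 8.37, 4.91, 4.86, 6.35 and 4.57. The knockout mock arrays thus held 3 high arrays, 1 low array and array 2 between them. Among knockouts under imiquimod array 1 was high, arrays 2, 3 and 5 were low and array 4 was between.

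**Figure D1:**
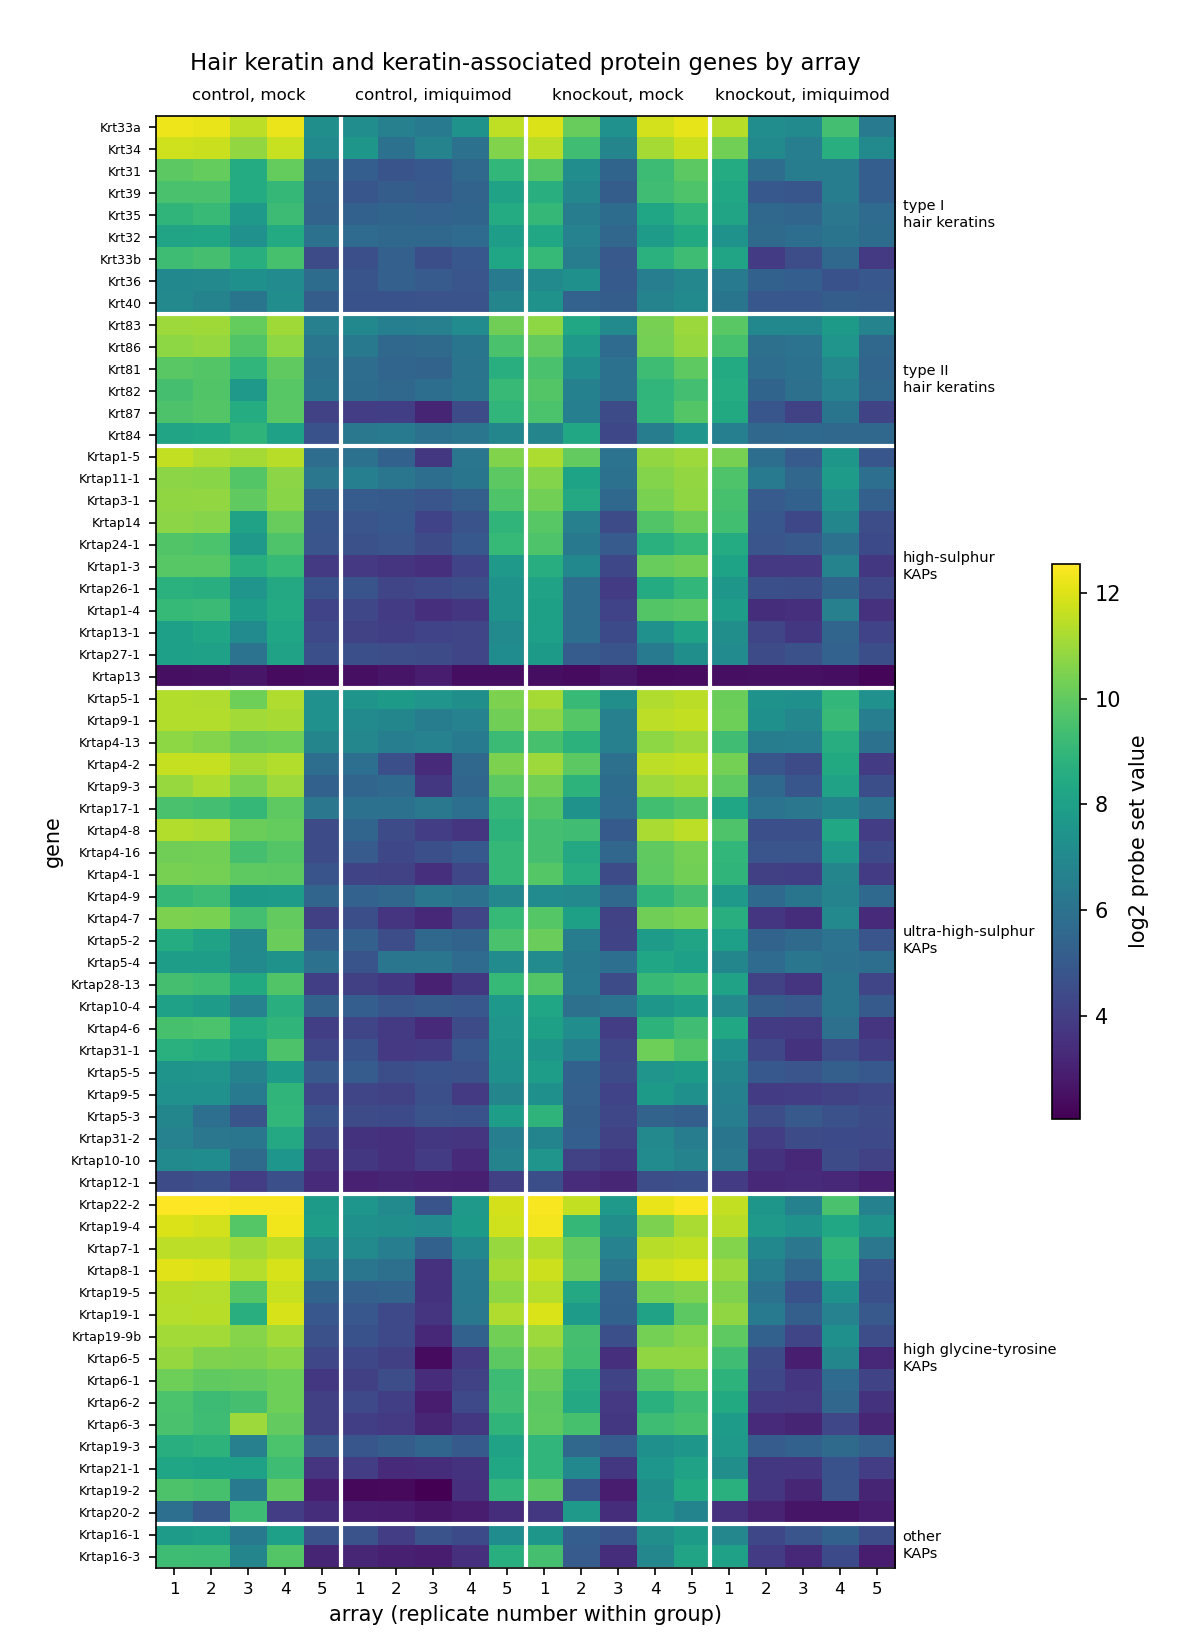
Log2 probe set value (colour) of the 66 genes (rows, by family and then by mean) in the 20 arrays (columns, by group and replicate number). Nearly all rows are bright in the same arrays: control mock 5 and knockout mock 3 are dark among mock arrays, and control imiquimod 5 and knockout imiquimod 1 are bright among imiquimod arrays.

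The arrays that stood apart did so across the families. Control mock array 5 had the lowest value of its group for 64 of 66 members, and for 48 of them it lay at least 2 log2 units below every other array of the group. Control imiquimod array 5 was the highest of its group for 65 members, 59 of them by at least 2 units. Knockout mock array 3 was the lowest for 64 members (31 by at least 2 units), and knockout imiquimod array 1 was the highest for 65 (28 by at least 2 units). A principal component analysis of the 66 members over the 20 arrays placed 94.4% of the variance on component 1, on which 65 members had a loading of the same sign, and 2.66% on component 2. The member that did not join was Krtap13.

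The spread between arrays of the same group was therefore wide. The pooled SD within groups had a median of 1.87 log2 units over the members (0.149 to 2.90), against 0.18 over all genes. In 65 of 66 members it exceeded 0.415, the 95th percentile of all genes. Of the 20 genes with the widest spread on the array 16 were members, as were 54 of the first 100 and 63 of the first 200. The group means accounted for a median of 37.7% of the sum of squares of a member, against 23% for all genes.

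**Figure D2:**
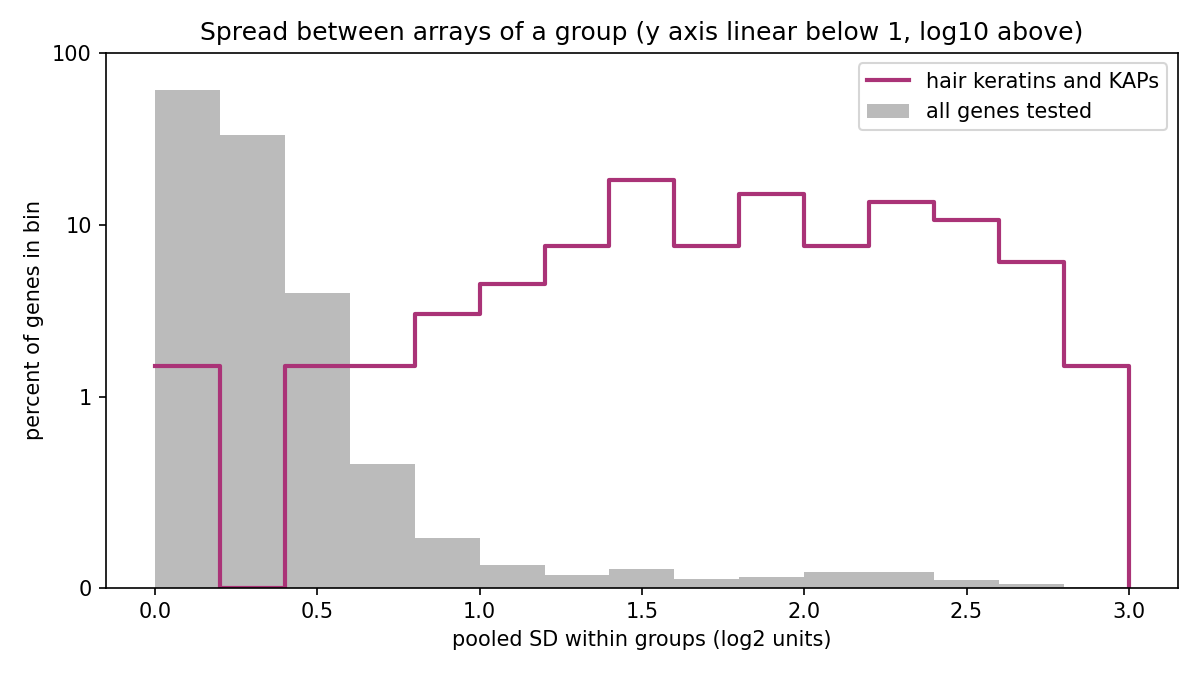
Percent of genes (y axis, linear below 1 and log10 above) by pooled SD within the 4 groups (x axis, log2 units) for the 66 hair keratin and keratin-associated protein genes (line) and all 22180 genes (grey). The members centre on 1.87 and all genes on 0.18.

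By family, the median SD was 1.61 in type I hair keratins, 1.58 in type II hair keratins, 1.93 in high-sulphur, 1.56 in ultra-high-sulphur and 2.43 in high glycine-tyrosine genes. The widest spread was that of Krtap6-5 (2.90) and Krtap19-2 (2.78), both high glycine-tyrosine proteins. The narrowest was that of Krtap13 (0.149), followed by Krtap12-1 (0.537).

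Among the type I hair keratins, the acidic partners of the filament, Krt33a is a keratin of the cortex. In control mock skin it was 12.27, 12.19, 11.48, 12.25 and 7.29, and 7.18, 6.61, 6.39, 7.42 and 11.55 under imiquimod. In knockouts it was 11.97, 10.09, 7.36, 11.81 and 12.15 in mock skin, and 11.42, 7.19, 7.03, 9.41 and 6.33 under imiquimod. Each mock group had 1 array at the level of the low imiquimod arrays and each imiquimod group 1 array near the high mock arrays, so the groups overlapped in every comparison. The imiquimod difference was -3.27 ± 1.19 (SE) in controls (limma, adjusted p = 0.0879) and -2.40 ± 1.19 in knockouts (adjusted p = 0.177).

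Krt34, another type I keratin of the cortex, had the same order of arrays. In controls it read 11.78, 11.72, 10.84, 11.65 and 7.08 in mock skin, and 7.60, 6.0, 6.73, 6.03 and 10.54 with imiquimod. Knockout skin gave 11.45, 9.32, 6.81, 11.14 and 11.72 in the mock group, and 10.29, 7.06, 6.53, 8.65 and 7.05 with imiquimod. The high arrays lay at 9.32 or above and the low arrays at 7.60 or below, with knockout imiquimod array 4 at 8.65 between them. The differences were -3.23 ± 1.07 in controls (limma, adjusted p = 0.0579) and -2.17 ± 1.07 in knockouts (adjusted p = 0.173).

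Krt36 is the type I hair keratin that passed the test in both genotypes. Its control values were 6.97, 7.01, 7.31, 7.12 and 5.76 in mock skin, and 4.79, 5.26, 5.05, 4.83 and 6.37 under imiquimod. Its knockout values were 7.03, 7.30, 5.01, 6.53 and 6.92 in mock skin, and 6.32, 5.31, 5.19, 4.72 and 4.92 under imiquimod. The same 4 arrays were the lowest or highest of their groups, but by less, with a pooled SD of 0.708, and the groups overlapped. Krt36 fell by 1.57 ± 0.40 (SE, 5 arrays a group) in controls under imiquimod, a 2.98-fold lower geometric mean (limma, adjusted p = 0.0143). It fell by 1.27 ± 0.40 in knockouts, 2.40-fold (adjusted p = 0.0299).

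The other type I keratins, Krt31, Krt32, Krt33b, Krt35, Krt39 and Krt40, had differences from -2.95 to -1.30 in controls and from -2.52 to -1.13 in knockouts. None of them passed the test.

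The type II hair keratins are the basic partners. For Krt83, a cortex keratin, control values were 11.01, 11.05, 10.05, 11.03 and 6.61 in mock skin, and 6.96, 6.58, 6.64, 7.13 and 10.25 under imiquimod. For knockouts they were 10.75, 8.32, 7.08, 10.39 and 10.96 in mock skin, and 9.85, 6.95, 6.95, 7.79 and 6.73 under imiquimod. Krt83 was thus high in 4 of 5 control mock arrays and in 1 of 5 control imiquimod arrays. Its differences were -2.44 ± 0.93 in controls (limma, adjusted p = 0.102) and -1.85 ± 0.93 in knockouts (adjusted p = 0.182).

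Krt86, a partner of the same kind, repeated this order. Control skin gave 10.76, 10.88, 9.70, 10.75 and 6.19 mock-treated, and 6.29, 5.62, 5.67, 6.12 and 9.53 with imiquimod. In knockouts Krt86 was 10.03, 7.71, 5.74, 10.36 and 10.87 in mock skin, and 9.5, 5.91, 6.07, 7.54 and 5.54 with imiquimod. Its differences were -3.01 ± 1.06 (limma, adjusted p = 0.0761) and -2.03 ± 1.06 (adjusted p = 0.204).

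Krt84 is a type II keratin known from the tongue as well as from hair, and it departed from the common order. It measured 8.16, 8.30, 8.88, 8.05 and 4.72 in control mock skin, and 6.27, 6.38, 6.01, 6.16 and 6.89 in controls under imiquimod. Knockouts measured 6.82, 8.32, 4.35, 6.49 and 7.52 in mock skin, and 6.59, 5.59, 5.66, 5.58 and 5.57 under imiquimod. Control mock array 3 and knockout mock array 2 held the highest values of their groups, although these arrays were not the highest for most members. Control mock array 5 and knockout mock array 3 lay below all arrays under imiquimod. Its differences were -1.28 ± 0.65 in controls (limma, adjusted p = 0.243) and -0.90 ± 0.65 in knockouts (adjusted p = 0.393).

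**Figure D3:**
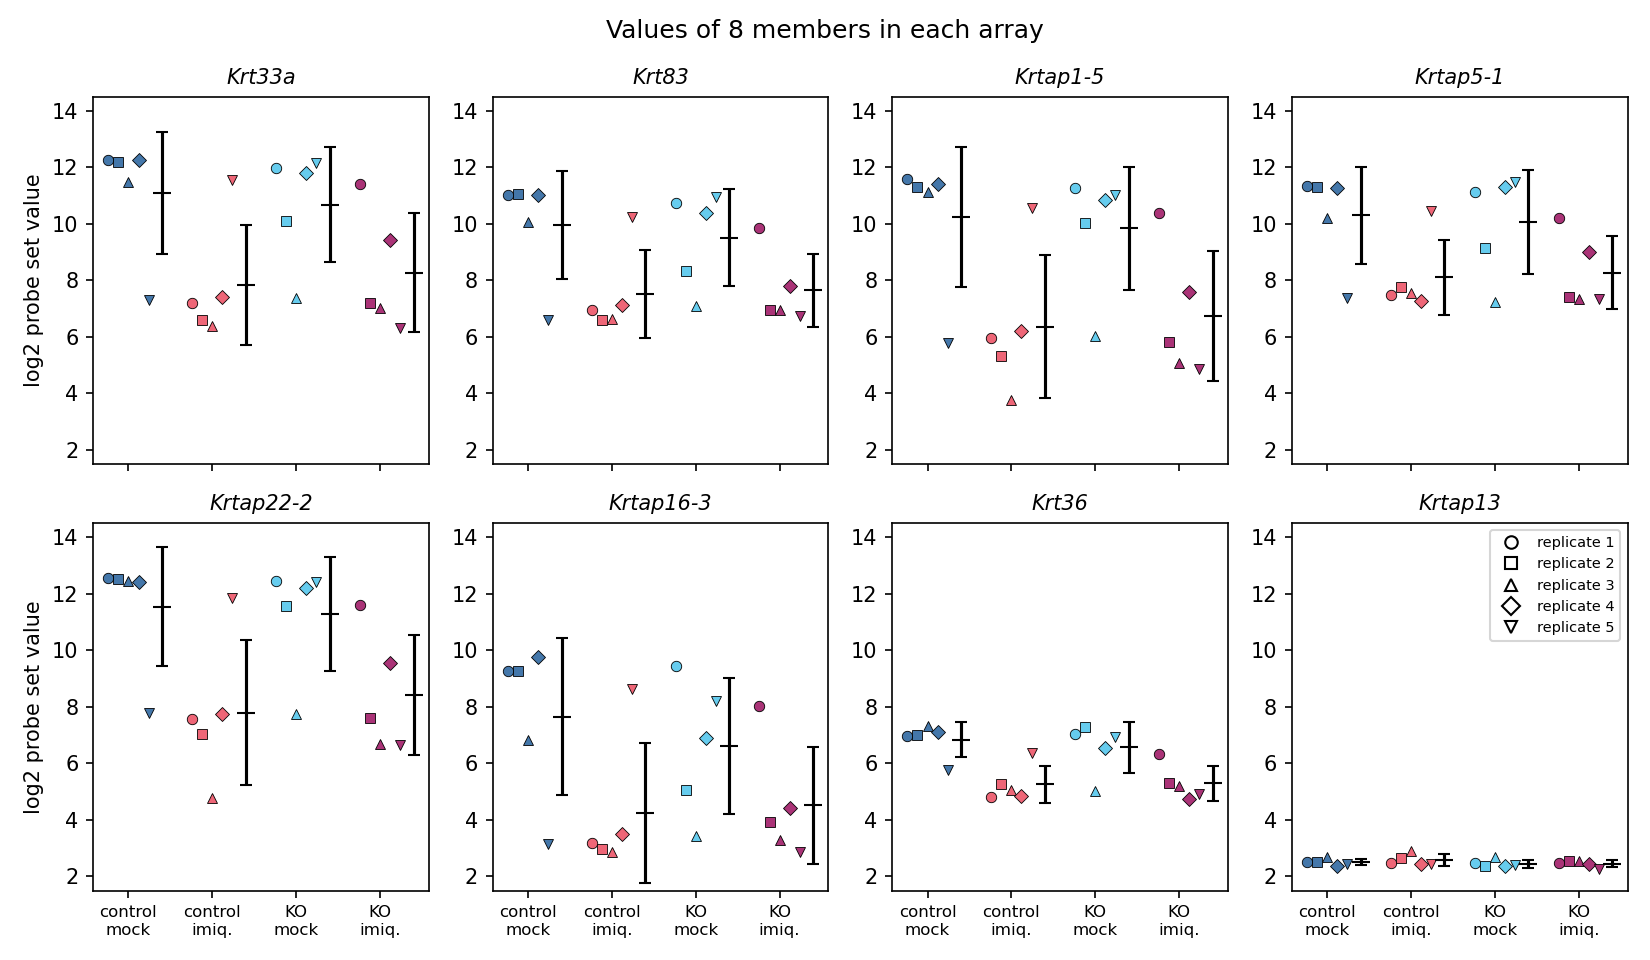
Log2 probe set value (y axis) of 8 genes in each array (points, marker shape by replicate number), by group (x axis), with the mean and SD of the 5 arrays beside each group. Krt33a, Krt83, Krtap1-5, Krtap5-1, Krtap22-2 and Krtap16-3 have control mock array 5 and knockout mock array 3 as the lowest of their groups and control imiquimod array 5 and knockout imiquimod array 1 as the highest, Krt36 has the same on a smaller scale, and Krtap13 stays between 2.25 and 2.91.

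High-sulphur keratin-associated proteins enter the matrix of the cortex. Krtap1-5 read 11.58, 11.29, 11.13, 11.40 and 5.80 in control mock skin, and 5.95, 5.33, 3.77, 6.19 and 10.55 in controls under imiquimod. In knockouts it read 11.26, 10.04, 6.04, 10.85 and 11.02 in mock skin, and 10.38, 5.83, 5.07, 7.59 and 4.88 under imiquimod. Its high arrays lay at 10.04 or above and its low arrays at 6.19 or below, with knockout imiquimod array 4 at 7.59. The differences were -3.88 ± 1.34 in controls (limma, adjusted p = 0.071) and -3.09 ± 1.34 in knockouts (adjusted p = 0.116).

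Krtap11-1 belongs to the same family. Its control values were 10.73, 10.67, 9.73, 10.72 and 6.20 mock-treated, and 6.59, 6.17, 5.84, 6.12 and 9.91 with imiquimod. Its knockout values were 10.59, 8.14, 5.99, 10.61 and 10.83 mock-treated, and 9.67, 6.39, 5.50, 7.85 and 5.88 with imiquimod. The groups overlapped through the same 4 arrays, and the differences were -2.68 ± 1.06 (limma, adjusted p = 0.118) and -2.17 ± 1.06 (adjusted p = 0.17).

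Krtap13 carries a high-sulphur symbol but was low and flat. It lay at 2.5, 2.52, 2.70, 2.38 and 2.44 in control mock skin, and 2.48, 2.66, 2.91, 2.43 and 2.45 in controls under imiquimod. In knockouts it lay at 2.46, 2.37, 2.69, 2.35 and 2.39 in mock skin, and 2.49, 2.53, 2.53, 2.44 and 2.25 under imiquimod. No array stood apart, and the imiquimod differences were 0.08 ± 0.10 in controls and -0.00 ± 0.10 in knockouts. At this level it is unknown whether the probe set lay above background, since detection calls were not used here.

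Ultra-high-sulphur proteins are known from the cuticle and the cortex. Krtap5-1 was 11.34, 11.29, 10.21, 11.28 and 7.36 in control mock skin, and 7.47, 7.77, 7.54, 7.27 and 10.46 in controls under imiquimod. Its values in knockouts were 11.11, 9.14, 7.23, 11.30 and 11.47 in mock skin, and 10.20, 7.42, 7.34, 9.0 and 7.35 under imiquimod. Low arrays were close to each other, between 7.23 and 7.77, whatever their group. The differences were -2.19 ± 0.88 in controls (limma, adjusted p = 0.125) and -1.79 ± 0.88 in knockouts (adjusted p = 0.175).

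Krtap9-1, of the same class, separated its high and low arrays as clearly. It gave 11.34, 11.35, 11.10, 11.15 and 7.36 in control mock skin, and 7.05, 6.87, 6.51, 6.69 and 10.27 in controls under imiquimod. Knockout skin read 10.72, 9.76, 6.63, 11.48 and 11.59 in the mock group, and 10.22, 7.32, 6.92, 9.16 and 6.56 under imiquimod. The differences were -2.98 ± 0.99 (limma, adjusted p = 0.0586) and -2.0 ± 0.99 (adjusted p = 0.174).

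Krtap31-2, a further ultra-high-sulphur gene, was 6.69, 6.23, 6.17, 8.38 and 4.32 in control mock skin, and 3.59, 3.53, 3.76, 3.67 and 6.56 in controls under imiquimod. Its levels in knockouts were 6.80, 5.20, 4.10, 6.99 and 6.52 in mock skin, and 6.14, 3.97, 4.5, 4.43 and 4.39 under imiquimod. The differences were -2.14 ± 0.70 (limma, adjusted p = 0.0547) and -1.24 ± 0.70 (adjusted p = 0.247). It had the smallest unadjusted p of any member, 0.372, for a response that differed between genotypes.

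Krtap12-1, the ultra-high-sulphur member with the narrowest spread, ranged from 3.30 to 4.62 in control mock skin and from 2.99 to 4.06 in controls under imiquimod. Its difference was -0.93 ± 0.31 in controls (limma, adjusted p = 0.0583) and -0.71 ± 0.31 in knockouts (adjusted p = 0.113).

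High glycine-tyrosine proteins are matrix proteins of the cortex, and of the 6 classes this one had the median difference between imiquimod and mock farthest from 0 in both genotypes. Krtap22-2 was 12.54, 12.50, 12.45, 12.42 and 7.77 in control mock skin, and 7.55, 7.04, 4.78, 7.73 and 11.85 in controls under imiquimod. In knockout skin it was 12.43, 11.57, 7.73, 12.20 and 12.42 when mock-treated, and 11.59, 7.61, 6.67, 9.53 and 6.65 under imiquimod. In control mock skin 4 arrays lay between 12.42 and 12.54, and array 5 at 7.77. The differences were -3.75 ± 1.25 in controls (limma, adjusted p = 0.0609) and -2.86 ± 1.25 in knockouts (adjusted p = 0.119).

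Krtap19-4 measured 11.98, 11.81, 9.76, 12.31 and 7.88 in control mock skin, and 7.30, 7.26, 7.10, 7.77 and 11.80 in controls under imiquimod. In knockouts Krtap19-4 measured 12.35, 9.05, 7.25, 10.46 and 11.22 in mock skin, and 11.40, 7.71, 7.43, 8.33 and 7.39 under imiquimod. Control mock array 3 and knockout mock array 2, high or intermediate for most members, were here at 9.76 and 9.05, against 12.31 and 12.35 in the highest arrays of their groups. The differences were -2.5 ± 1.07 in controls (limma, adjusted p = 0.152) and -1.61 ± 1.07 in knockouts (adjusted p = 0.344).

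Krtap6-5, with the widest spread, read 10.88, 10.52, 10.49, 10.69 and 4.31 in control mock skin, and 4.35, 4.03, 2.35, 3.86 and 9.89 in controls under imiquimod. Its knockout readings were 10.54, 9.36, 3.49, 10.80 and 10.78 in mock skin, and 9.33, 4.46, 2.93, 6.88 and 3.21 under imiquimod. From the lowest to the highest array it covered 8.53 log2 units. The differences were -4.48 ± 1.64 (limma, adjusted p = 0.0891) and -3.63 ± 1.64 (adjusted p = 0.132).

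The 2 Krtap16 genes were not assigned to these classes here. Krtap16-1 lies on chromosome 11. Krtap16-3 lies on chromosome 16 between Krtap19-9b and Krtap22-2, both high glycine-tyrosine genes. Krtap16-3 was 9.28, 9.26, 6.81, 9.75 and 3.15 in control mock skin, and 3.17, 2.98, 2.85, 3.50 and 8.64 in controls under imiquimod. For knockouts it was 9.45, 5.06, 3.42, 6.90 and 8.19 in mock skin, and 8.04, 3.94, 3.28, 4.43 and 2.86 under imiquimod. Its differences were -3.42 ± 1.38 (limma, adjusted p = 0.126) and -2.09 ± 1.38 (adjusted p = 0.341). In knockout mock skin the arrays were spread over the range, with array 2 (5.06) and array 3 (3.42) lowest. In Krtap16-1, as in Krtap16-3, control mock array 5 and knockout mock array 3 were the lowest of their groups. Control imiquimod array 5 and knockout imiquimod array 1 were the highest of theirs in both genes. Knockout mock arrays 2 (5.18) and 3 (4.79) were close together in Krtap16-1. Its differences were -1.96 ± 0.73 (limma, adjusted p = 0.0946) and -1.33 ± 0.73 (adjusted p = 0.232).

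The comparison of imiquimod with mock asks what the treatment did to these genes in each genotype. In controls the difference was below 0 in 65 of 66 members, with a median of -2.81 log2 units against 0.00 over all genes, and it reached -2 or lower in 51 members (0.433% of all genes did). After adjustment 1 member, Krt36, passed in the lower direction and 0 in the higher direction. Over all genes 4.37% passed as lower and 6.47% as higher. Before adjustment 62 members had a p under 0.05 as lower, where 11.6% of all genes did. No member had groups that did not overlap (2.74% of all genes, lower). The median SE of a member was 1.06 log2 units, 9.42 times the 0.113 of all genes. By family the median difference was -2.72 in type I and -2.53 in type II hair keratins. It was -2.68 in high-sulphur, -2.21 in ultra-high-sulphur, -3.66 in high glycine-tyrosine and -2.69 in Krtap16 genes.

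How many members passed in controls turned on single arrays. Without control mock array 5 the count was 63, without control imiquimod array 5 it was 60, without knockout mock array 3 it was 25, and without knockout imiquimod array 1 it was 9. All passed in the lower direction. The shares of all genes that passed in these fits are not given here, so the counts describe the members alone. The knockout arrays enter through the estimate of the spread, which all groups share. The values that set these arrays apart are those tested, so the counts without them are a description. The median difference stayed between -3.70 and -2.53 whichever array was left out. Krt36 passed whichever array was left out (adjusted p 0.00314 to 0.0429).

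In knockouts the difference was below 0 in 66 of 66 members, with a median of -2.01 against 0.00 over all genes. It was -2 or lower in 34 members (0.383% of all genes). Here 3 members passed as lower and 0 as higher, where 9.71% of all genes passed as lower and 11.1% as higher. Besides Krt36 these were Krtap20-2 and Krtap6-3, both high glycine-tyrosine proteins. Before adjustment 32 members had a p under 0.05 as lower (15.5% of all genes), and again 0 had groups that did not overlap (6.53% of all genes, lower). By family the median was -1.81 in type I, -1.85 in type II, -2.15 in high-sulphur, -1.79 in ultra-high-sulphur, -2.84 in high glycine-tyrosine and -1.71 in Krtap16 genes. The control and knockout responses rest on separate arrays.

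The 3 calls in knockouts and their number also turned on single arrays. The count was 35 without knockout mock array 3, 11 without knockout imiquimod array 1 and 5 without control mock array 5. It was 1 without knockout mock array 1 or knockout imiquimod array 2 or 5, and 0 without knockout mock array 2, 4 or 5 or knockout imiquimod array 3 or 4. For these fits too the shares of all genes that passed are not given here. Krt36 lost its call without any of 8 arrays, knockout mock 1, 2, 4 and 5 and knockout imiquimod 2, 3, 4 and 5 (adjusted p 0.0506 to 0.0877). Krtap20-2 lost it without knockout mock array 2, 4 or 5 or knockout imiquimod array 3 or 4 (0.0515 to 0.0817). Krtap6-3, named because it passed, lost it without those 8 arrays of Krt36 or control imiquimod array 1 (0.0501 to 0.0945). The median difference stayed between -2.84 and -1.59.

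**Figure D4:**
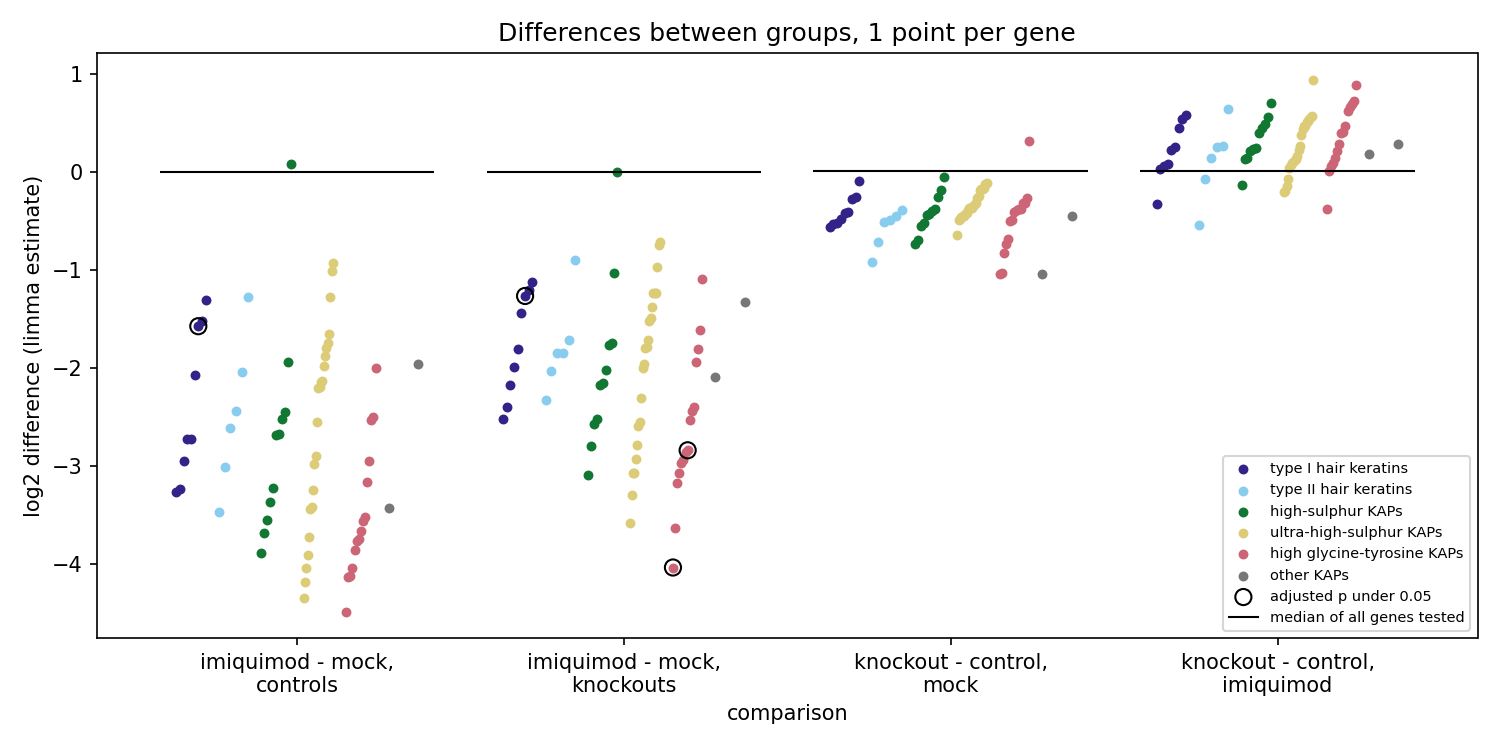
Log2 difference between groups (y axis, limma estimate) for the 66 genes (points, coloured by family) in 4 comparisons (x axis). Rings mark genes with an adjusted p under 0.05, and lines mark the median of all 22180 genes. The imiquimod differences centre on -2.81 in controls and -2.01 in knockouts, with 1 and 3 rings; the genotype differences lie between -1.05 and 0.94 with no ring.

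The comparison of genotypes asks whether loss of Zfp36 in keratinocytes moved these genes. In mock skin the median difference of knockout from control was -0.42 (65 of 66 members below 0), against 0.01 over all genes. With limma 0 members passed after adjustment (0.00902% of all genes passed as higher and 0% as lower), and 0 had an unadjusted p under 0.05 (3.19% of all genes did, in either direction). No member had groups that did not overlap (0.189% of all genes higher, 0.221% lower). Under imiquimod the median was 0.25, with 57 members above 0, and again 0 members passed (0.374% of all genes as higher, 0.171% as lower) and 0 had an unadjusted p under 0.05 (10% of all genes). Groups overlapped for all 66 members there too (1.3% of all genes did not overlap as higher, 1.17% as lower). The sign of the median turned with single arrays: in mock skin it was 0.23 without knockout mock array 3 and -1.29 without control mock array 5. Under imiquimod it was -0.31 without knockout imiquimod array 1, 1.0 without control imiquimod array 5 and -0.00 without control imiquimod array 3. These comparisons share arrays with the imiquimod comparisons.

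The intervals of the genotype differences were wide. For Krt33a the difference in mock skin was -0.42 with a 95% interval from -2.90 to 2.06, and under imiquimod 0.45, from -2.04 to 2.93. For Krtap6-5 the interval in mock skin ran from -3.81 to 3.04. For Krt36 it ran from -1.12 to 0.57, and for the flat Krtap13 from -0.26 to 0.15. Krt84 had the smallest p among members in mock skin, with a difference of -0.92 (interval -2.28 to 0.44; limma, adjusted p = 0.999).

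The test of whether the imiquimod difference itself differed between genotypes gave 0 members passing (0.018% of all genes passed as higher, 0% as lower) and 0 with an unadjusted p under 0.05 (6.75% of all genes). The difference between responses was above 0 in 63 of 66 members, with a median of 0.70 against 0.00 over all genes. Without knockout mock array 3 this median was -0.01 and without control mock array 5 it was 1.52. In exact two-sided permutation tests of 20 named members in 4 comparisons (80 tests), 13 had an unadjusted p under 0.05 and 0 passed after adjustment. The smallest p that 5 against 5 arrays allow is 0.00794. It needs groups that do not overlap, which no member had. The 0 after adjustment therefore cannot show that differences are absent. For Krt36 in controls the exact p was 0.0159 (adjusted 0.231), the same as for Krtap9-1 and Krtap22-2.

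Some members departed from the common order of arrays. Krtap20-2 was 5.89, 5.00, 9.24, 3.95 and 3.42 in control mock skin, and 2.96, 2.87, 2.68, 2.89 and 3.43 in controls under imiquimod. In knockouts Krtap20-2 was 3.74, 7.67, 3.44, 7.41 and 6.78 in mock skin, and 3.57, 3.10, 2.65, 2.64 and 2.89 under imiquimod. Control mock array 3 was its highest array, and control imiquimod array 5 and knockout imiquimod array 1, high for other members, were at 3.43 and 3.57. Krtap20-2 fell by 2.84 ± 0.88 (SE) in knockouts, 7.15-fold (limma, adjusted p = 0.0263), and its difference in controls was -2.53 ± 0.88 (adjusted p = 0.0731).

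Krtap6-3, from the same cluster on chromosome 16, was 9.52, 9.27, 11, 10.02 and 4.06 in control mock skin, and 4.00, 3.84, 3.19, 3.75 and 8.93 in controls under imiquimod. Knockout values of Krtap6-3 were 9.94, 9.5, 3.75, 9.29 and 9.48 in mock skin, and 7.82, 3.36, 3.15, 4.28 and 3.19 under imiquimod. Its highest array was also control mock array 3, but unlike Krtap20-2 it was high in control imiquimod array 5, at 8.93. Krtap6-3 fell by 4.03 ± 1.38 in knockouts, 16.4-fold (limma, adjusted p = 0.0424), and had the same difference of -4.03 in controls with an adjusted p of 0.0672.

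Krtap19-2 kept the 4 arrays that stood apart but, unlike Krtap20-2 and Krtap6-3, was lower in control mock array 3. It was 9.61, 9.48, 6.4, 9.98 and 2.94 in control mock skin, and 2.28, 2.33, 2.06, 3.52 and 8.95 in controls under imiquimod. In knockouts Krtap19-2 was 9.87, 4.72, 2.91, 7.28 and 8.43 in mock skin, and 8.73, 3.73, 3.19, 4.74 and 3.14 under imiquimod. Here control mock array 3 and knockout mock array 2 were far below the high arrays of their groups. Krtap5-3, an ultra-high-sulphur gene named after its values were seen, was 6.86, 5.90, 4.79, 8.98 and 4.80 in control mock skin, and 4.47, 4.41, 4.73, 4.69 and 7.95 in controls under imiquimod. It was high in control mock array 4, control imiquimod array 5 and knockout mock array 1 (8.86), and at 5.14 to 5.41 in knockout mock arrays 2, 4 and 5. On component 2 of the principal component analysis the loadings ran from 0.49 in Krtap20-2 to -0.30 in Krtap5-3. Control mock array 3 (6.23) and knockout mock array 2 (6.30) had the highest scores there, and knockout mock array 1 (-4.57) and control mock array 4 (-4.27) the lowest.

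**Figure D5:**
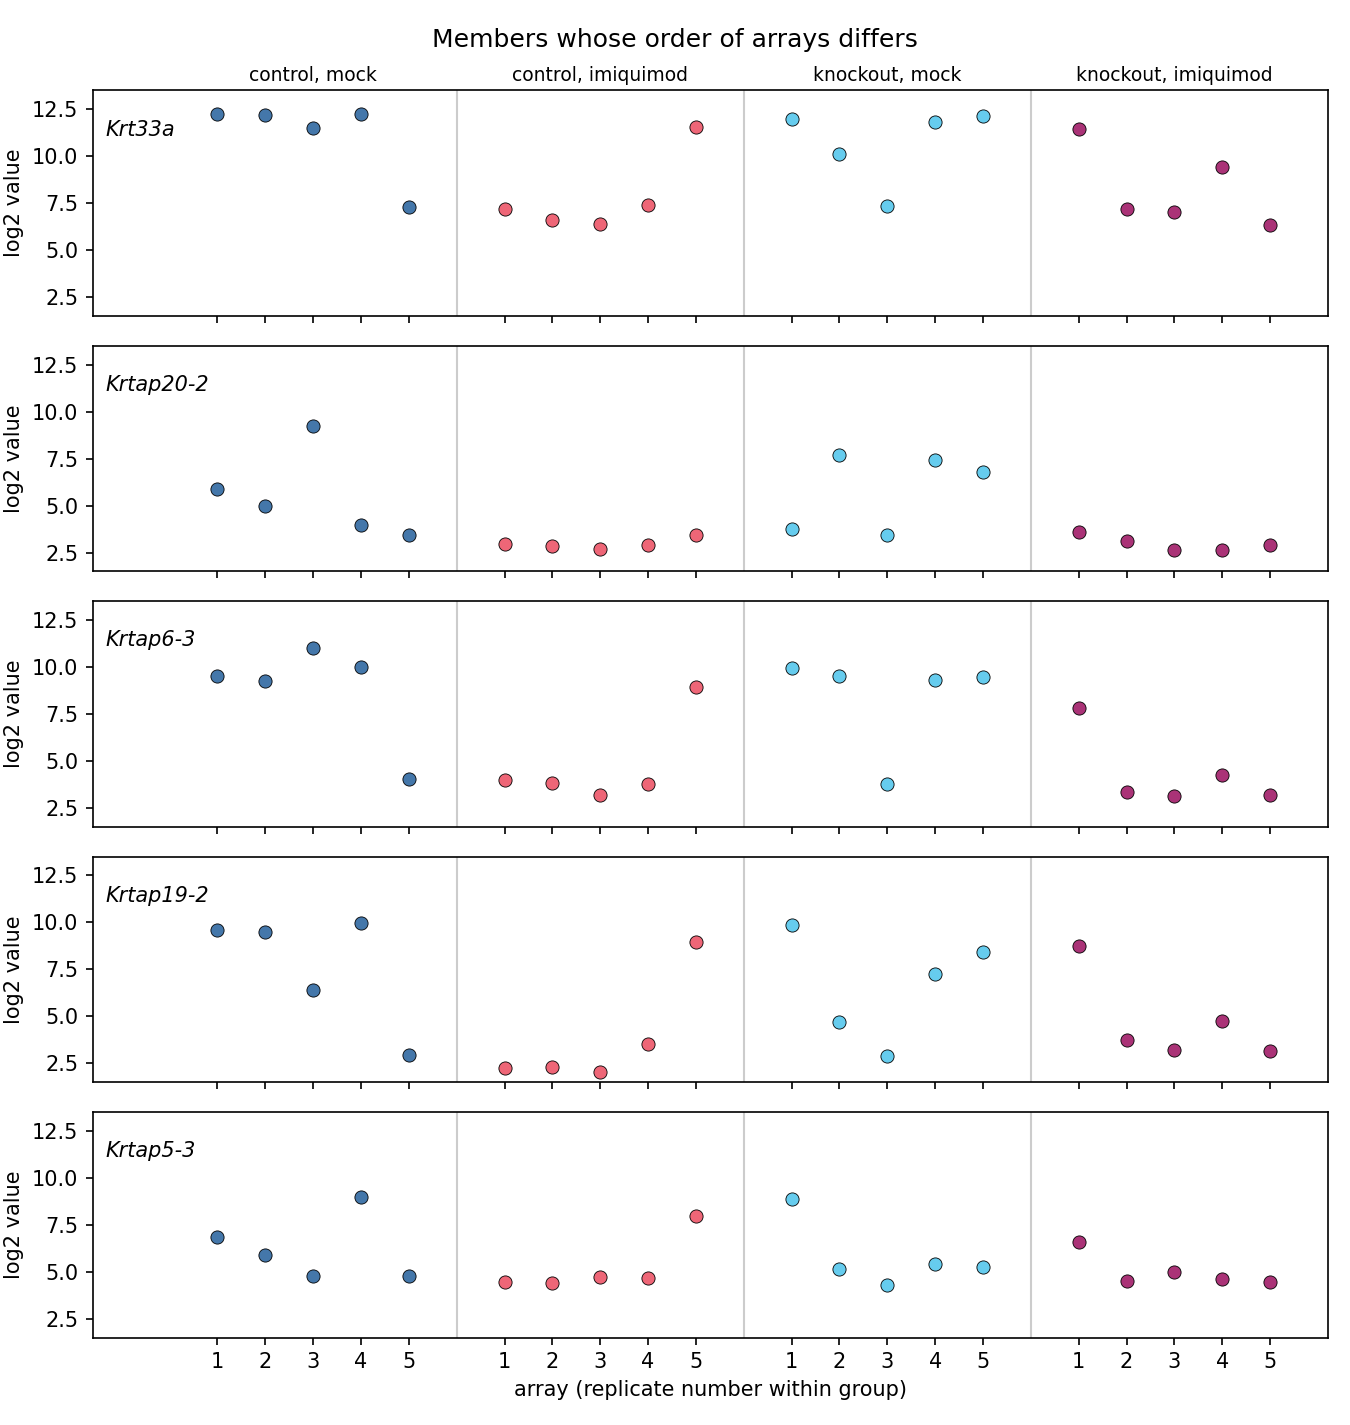
Log2 probe set value (y axis) of 5 genes in the 20 arrays (x axis, replicate number within group). Krt33a shows the common order; Krtap20-2 is highest in control mock array 3 (9.24) and low in control imiquimod array 5 (3.43), whereas Krtap5-3 is highest in control mock array 4 (8.98) and low in control mock array 3 (4.79).

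Most other genes of the growing follicle had a wide spread too. Of 11 measured genes of the inner root sheath and companion layer, the layers that mould the shaft, 9 were among the 100 genes with the widest spread. Their median imiquimod difference was -3.34 in controls and -2.49 in knockouts, and 0 passed in either (11 and 6 had an unadjusted p under 0.05 as lower). Krt71, an inner root sheath keratin, was 11.85, 11.79, 11.33, 11.72 and 6.76 in control mock skin, and 6.62, 6.22, 5.41, 6.54 and 11.21 in controls under imiquimod. High and low arrays were those of Krt33a. Tchh, which encodes trichohyalin, the granule protein of the inner root sheath, had differences of -3.38 ± 1.16 (limma, adjusted p = 0.0692) and -2.64 ± 1.16 (adjusted p = 0.122). Of 8 other hair shaft proteins, 5 were among the 100 genes with the widest spread, with median differences of -2.59 and -1.95. Hephl1, the one of them with the highest mean, had another order. It was 9.59, 9.56, 8.0, 9.30 and 7.45 in control mock skin, and 8.34, 8.18, 8.45, 8.25 and 8.84 in controls under imiquimod. In knockouts Hephl1 was 9.13, 7.20, 7.11, 8.43 and 9.03 in mock skin, and 9.25, 9.02, 8.43, 8.87 and 8.65 under imiquimod. Its knockout imiquimod arrays were all at 8.43 or above, and its differences were -0.37 ± 0.41 (limma, adjusted p = 0.68) and 0.66 ± 0.41 (adjusted p = 0.303). Krt74, an inner root sheath keratin, had differences of -1.65 ± 0.54 (adjusted p = 0.0546) and -1.13 ± 0.54 (adjusted p = 0.156). Crym fell in controls by 2.16 ± 0.69 (limma, adjusted p = 0.0481), a call lost without any of 13 arrays (0.0519 to 0.117).

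Regulators of the hair matrix had median differences of -0.87 in controls and -0.67 in knockouts. Of 13 measured, 1, Wnt10a, passed as higher in each genotype. As lower, 2 passed in controls, Gata3 and Foxq1, and 2 in knockouts, Gata3 and Wnt10b. Over all genes 6.47% passed as higher and 4.37% as lower in controls, and 11.1% and 9.71% in knockouts. Of the 13, 0 were among the 100 genes with the widest spread, but 8 had an SD above 0.415, the 95th percentile of all genes. Gata3, a transcription factor of the inner root sheath, fell by 0.72 ± 0.16 in controls (limma, adjusted p = 0.00457) and by 0.86 ± 0.16 in knockouts (adjusted p = 0.000498). Unlike Krt71, it was close to its group in control mock array 5 (7.58, others 7.61 to 7.86) and knockout mock array 3 (7.51, others 7.51 to 8.04). In control imiquimod array 5 Gata3 was 7.52 (others 6.62 to 7.02). The mean of the 13 regulators did set the same 4 arrays apart. It was 5.61 in control mock array 5 (others 6.19 to 6.98) and 5.66 in knockout mock array 3 (others 5.84 to 6.80). Under imiquimod the mean was 6.59 in control array 5 (others 5.58 to 5.71) and 6.52 in knockout array 1 (others 5.58 to 5.78). Ovol1, the regulator with the highest mean, had differences of 0.61 ± 0.25 (adjusted p = 0.14) and 0.66 ± 0.25 (adjusted p = 0.0735). Hoxc13, a homeobox factor known to activate hair keratin genes, had differences of -1.49 ± 0.56 (adjusted p = 0.0978) and -1.5 ± 0.56 (adjusted p = 0.0653). Of 6 genes of the dermal papilla, the cells that signal to the matrix, 0 passed in controls and 1, Alpl, in knockouts, as higher (0.33 ± 0.11, adjusted p = 0.0385; Alpl was named after its values were seen). Among them Wif1, with the highest mean, had differences of -0.78 ± 0.53 (adjusted p = 0.422) and -0.11 ± 0.53 (adjusted p = 0.926), and Corin, with the smallest p in controls, of -0.65 ± 0.25 (adjusted p = 0.11) and -0.46 ± 0.25 (adjusted p = 0.228). Of 8 genes of the bulge and outer root sheath, which persist when a follicle rests, 2 fell in controls and 4 in knockouts. Over all genes 4.37% and 9.71% passed as lower. Above 0 in controls were Fgf18 (0.48 ± 0.20) and Nfatc1 (0.14 ± 0.17), and neither passed. Krt15, a keratin of the bulge, fell by 1.16 ± 0.29 in controls (limma, adjusted p = 0.0131) and by 2.25 ± 0.29 in knockouts (adjusted p = 1.36e-05). Krt15 was 10.79 in control mock array 5, the highest of its group (others 9.55 to 10.73). In knockout mock array 3 it was 10.47 (others 9.87 to 11.02).

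Genes of pigment cells did not all have the same order of arrays. Mitf, the transcription factor that governs melanocyte genes and the one with the highest mean of its list, was near the order of the hair keratins. Mitf was 8.45, 8.40, 8.47, 8.14 and 7.18 in control mock skin, and 6.94, 6.82, 6.76, 6.83 and 7.80 in controls under imiquimod. In knockouts Mitf was 8.16, 7.64, 7.19, 8.25 and 8.42 in mock skin, and 7.23, 6.52, 6.73, 6.69 and 6.53 under imiquimod. It fell by 1.10 ± 0.26 in controls (limma, adjusted p = 0.00853) and by 1.19 ± 0.26 in knockouts (adjusted p = 0.00257). Tyrp1, named after its values were seen, differed from that order. This melanin-synthesis enzyme was 8.61, 8.40, 5.11, 8.76 and 5.37 in control mock skin, and 5.34, 5.04, 5.18, 5.51 and 8.35 in controls under imiquimod. In knockouts Tyrp1 was 8.78, 5.64, 5.15, 5.08 and 6.61 in mock skin, and 7.55, 5.47, 5.36, 6.39 and 5.57 under imiquimod. It was near the low arrays in control mock array 3 (5.11) and knockout mock arrays 2 (5.64) and 4 (5.08), where Krt33a was 11.48, 10.09 and 11.81. Over the 10 genes of the melanocyte list the mean was 5.41, 5.28 and 5.48 in these 3 arrays, against 7.02 in knockout mock array 1 and 6.97 in control mock array 4.

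Some marker lists of other tissue were outside the range of the other arrays of the group in each array that stood apart. In control mock array 5 the mean of 5 skeletal muscle genes was 10.36 (8.92 to 9.73 in the other 4 arrays of the group). That of 5 adipocyte genes was 8.68 (7.66 to 8.47), of 5 fibroblast genes 11.03 (9.78 to 10.42) and of 6 genes of the epidermis between follicles 10.51 (9.46 to 9.77). The mean of 5 immune cell genes was 6.26 there (5.61 to 6.05). That of sebaceous gland genes lay just below the range, at 7.39 (7.41 to 7.87). Knockout mock array 3 had 10.20 for muscle (others 9.32 to 9.94), 9.35 for adipocytes (7.64 to 8.40) and 10.67 for fibroblasts (9.87 to 10.59). Its epidermis mean of 9.98 lay just above the range (9.62 to 9.92). Its means for immune cells (6.28, others 5.93 to 6.48) and sebaceous gland (7.73, others 7.47 to 7.95) lay inside. In control imiquimod array 5, high for hair genes, the mean of 5 immune cell genes was 6.48 against 7.60 to 7.99 in the other 4 arrays. S100a9, a neutrophil protein, was 6.38 there against 8.16 to 9.55. The means for muscle (8.69, others 9.30 to 10.08) and adipocytes (7.43, others 7.50 to 8.05) also lay below the range in that array. So did those for the epidermis list (10.998, others 11.34 to 11.46) and sebaceous gland genes (8.54, others 8.74 to 8.93). The fibroblast mean of 9.69 lay inside it (others 9.45 to 9.78). In knockout imiquimod array 1 the means for muscle (8.16, others 7.71 to 8.81) and adipocytes (6.97, others 6.79 to 7.61) lay inside the range. Those for the immune list (8.12, others 8.13 to 8.70) and the epidermis list (10.57, others 10.60 to 11.42) lay just below it. The fibroblast mean of 9.35 lay below it as well (others 9.46 to 9.87). Across the 4 groups the ranges of the list means were 8.92 to 10.36, 8.69 to 10.08, 9.32 to 10.20 and 7.71 to 8.81 for muscle, in the order control mock, control imiquimod, knockout mock and knockout imiquimod. For the immune list they were 5.61 to 6.26, 6.48 to 7.99, 5.93 to 6.48 and 8.12 to 8.70. No gene of these lists was listed at 0. The part of other tissue in the values of the hair genes was not tested.

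S100a9 and Flg passed the test as higher under imiquimod in both genotypes. In control imiquimod array 5 S100a9 was 6.38, above the 4.27 to 4.85 of control mock skin and below the other arrays of its own group. It was 4.82 in control mock array 5. Flg, which encodes filaggrin of the cornified epidermis, was 10.53 in control imiquimod array 5 and 8.89 in control mock array 5, against 10.96 to 11.22 and 7.76 to 8.53 in the other arrays of those groups. In knockouts S100a9 was 5.12 in mock array 3 and 10.34 in imiquimod array 1, and Flg 7.85 and 10. The labels used here give neither the hair cycle stage nor the depth of the skin sample of an animal, and the part of either in the group differences was not tested.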

How the data were processed

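The authors deposited 1 table of log2 probe set values for 20 arrays. The log2 scale is read from the values (1.41 to 13.33); the sources used here do not say how they were summarised and normalized, or with which software. The array label was made by the Affymetrix WT PLUS protocol from total RNA, per the labels. The platform table paired 23521 of 41345 probe sets with a single symbol, gave several symbols for 1814 and left 16010 unlisted. For 1082 genes with more than 1 probe set, the one with the highest mean was read, for 22180 genes in all. Detection calls were not used, so which probe sets lay above background is unknown, and the number of arrays limits the precision.

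The test was limma 3.58.1 (R 4.3.3), fitted to all 20 arrays with 1 mean per group, two-sided, with 16 residual and 3.99 prior degrees of freedom, Benjamini-Hochberg adjustment over 22180 genes and a threshold of 0.05. The fit was tested on simulated data. Within each genotype imiquimod was compared with mock, within each treatment the genotypes were compared, and a further contrast took the difference of both responses. Named members were the 2 with the highest mean per class, the smallest p per contrast, and the 2 widest and 2 narrowest within-group SDs. Each follicle list gave its highest mean and smallest p. Lists of other tissue are given by their means and by Krt10, Flg and S100a9, which that rule picked along with others not shown. Krtap6-3, Krtap5-3, Krt71, Tyrp1, Hoxc13, Foxq1, Wnt10a, Wnt10b, Fgf18, Nfatc1, Alpl, Calhm4, Lyg2, Lrrc15, Ctse and Gabrp were added after their values were seen. The members, classes and lists were chosen with earlier results of these data known. Settings varied were the groups in the fit, a replicate block, the prior variance (intensity trend or robust), array weights, quantile or median normalization on top, the choice among probe sets of a gene, omission of the 30% dimmest genes, exact permutation tests, and omission of each array. Promoter windows are those of RefSeq on GRCm38.p6, with the 50 bases after the start left out.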

Additional observations from a re-analysis of the deposited data

Results flagged for a closer look

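Dixon's ratio, the gap of the highest or lowest array to its nearest neighbour divided by the range of the group, was computed for 20 named members and for the median over all members in the 4 groups (84 groups of 5 arrays). Chance passes the critical value of 0.71 in about 1 in 20 groups; 34 passed here. The members are high and low together, so these are not 34 separate signs.

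Control mock array 5 was the lowest of its group in 13 of them. The ratio was 0.841 for Krt33a, 0.8 for Krt34, 0.775 for Krt83, 0.748 for Krt86, 0.781 for Krt36 and 0.8 for Krt84. It was 0.922 for Krtap1-5, 0.779 for Krtap11-1, 0.716 for Krtap5-1, 0.937 for Krtap9-1, 0.975 for Krtap22-2 and 0.941 for Krtap6-5. For the median over the members it was 0.744.

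Control imiquimod array 5 was the highest of its group in 14. The ratio was 0.8 for Krt33a, 0.85 for Krt83, 0.829 for Krt86, 0.816 for Krtap11-1, 0.843 for Krtap5-1, 0.856 for Krtap9-1 and 0.857 for Krtap19-4. It was 0.752 for Krtap16-1, 0.888 for Krtap16-3, 0.924 for Krtap31-2, 0.788 for Krtap19-2, 0.735 for Krtap6-5 and 0.85 for Krtap12-1. For the median over the members it was 0.914.

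Knockout mock array 3 was the lowest of its group for Krtap1-5 (0.766), Krtap22-2 (0.817) and Krtap6-5 (0.803). Knockout imiquimod array 1 was the highest of its group for Krtap19-4 (0.766), Krt84 (0.912), Krtap31-2 (0.756) and Krtap19-2 (0.714).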

How the results depend on the processing

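No named member that passed the test changed sign. The median difference over the members ran from -1.29 to 0.23 for knockout against control in mock skin and from -0.31 to 1.0 under imiquimod with 1 array left out, and that between responses from -0.01 to 1.52. With array weights, in which control mock array 5 (0.422) and knockout mock array 3 (0.505) received the lowest weights, 64 members passed as lower in controls and 48 in knockouts. With the 30% dimmest genes left out, 9 of 63 members passed in controls. With the replicate number as a block, 1 member passed in controls and 1 in knockouts, where Krtap20-2 had an adjusted p of 0.0518. The deviations of same-numbered arrays from their group means correlated over 0.1 in 0 of 5 pairs for imiquimod in controls (-0.71 to -0.20), 3 of 5 in knockouts (-0.31 to 0.39), 3 of 5 for genotype in mock skin (-0.63 to 0.43) and 2 of 5 under imiquimod (-0.41 to 0.31), so the arrays were not treated as pairs. With 1 array left out, 1 to 63 members passed in controls and 0 to 35 in knockouts, and 0 in the other 3 contrasts. The shares of all genes that passed under these other settings are not given here, so the counts describe the members alone. With a robust prior Krtap6-3 had an adjusted p of 0.0751 in knockouts. Of 2945 values of named members under alternatives, 89 newly passed, 17 no longer passed and 0 reversed with a call on either side. Of the 17, 3 were in the exact permutation tests, where overlap of the groups kept every member above the smallest p. The difference between responses uses all 4 groups, so it has no fit on fewer. Every probe set by itself was run for the counts and medians and not for single members. The members among the 100 genes with the widest spread numbered 52 to 55. The limits are the 5 arrays a group, of which 1 stood apart in each, and probe sets of similar gene copies.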

Other observations

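In all, 10 further probe sets carried a member symbol together with other symbols and stood outside the set. Krtap2-4, Krtap3-2, Krtap3-3 and Krtap15 were seen only in such probe sets. The probe set shared by Krtap15 and another symbol read 11.77, 11.80, 9.89, 11.70 and 6.89 in control mock skin and 6.69, 6.14, 5.39, 7.05 and 11.08 in controls under imiquimod. A probe set shared by Krtap3-2 and Krtap3-3 read 10.49, 8.91, 5.23, 10.60 and 10.91 in knockout mock skin and 9.72, 4.90, 4.10, 7.43 and 4.42 in knockouts under imiquimod. These are the same high and low arrays as in Krt33a.

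Among genes that are neither members nor on the follicle lists, Calhm4 (SD within groups 2.48), Lyg2 (2.21), Lrrc15 (1.80), Ctse (1.73) and Gabrp (1.63) were also among the 100 with the widest spread. Calhm4 was 11.16, 10.90, 9.42, 11.07 and 5.06 in control mock skin and 4.98, 4.93, 4.17, 5.90 and 10.54 in controls under imiquimod. Lyg2 had the order of Krtap19-2, with 8.14 in control mock array 3 and 6.4 in knockout mock array 2 against 10.38 in control mock array 4 and knockout mock array 1. These genes were named after their values were seen.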
